A study of Mus musculus with 8 samples.

Results

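The genes examined were Runx1, Runx2 and Runx3, which encode the 3 DNA-binding RUNX factors, and Cbfb, which encodes their partner. ATAC-seq peaks were assigned to them when they overlapped the gene body or lay within 50 kb of a transcription start site (TSS) of the gene in GENCODE M21. Merging touching or overlapping peaks across the 8 libraries gave 183173 regions, and 135 of these lay at the 4 genes: 44 at Runx1, 53 at Runx2, 25 at Runx3 and 13 at Cbfb. They held 453 of 546932 peaks. Regions are numbered along each gene in the direction of transcription, so that Runx3-07 is the seventh region of Runx3.

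RUNX factors bind DNA through the Runt domain, and the CBFβ protein, which does not touch DNA, binds that domain and strengthens its hold. Each Runx gene has a distal and a proximal promoter, whose transcripts differ at the start of the protein. RUNX1 is best known from blood formation, RUNX2 from bone and RUNX3 from T cells and nerve cells. In the mammary gland, RUNX1 is the main member in epithelial cells, RUNX2 is also expressed, and RUNX1 and CBFB are recurrently mutated in human breast cancer. YAP, which LATS kinases inhibit, can bind RUNX proteins.

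ATAC-seq marks open chromatin by the insertion of adapters with the Tn5 transposase. The cells came from cell lines of mammary tumors driven by the polyomavirus middle T oncogene (PyMT) in mice of strain FBV/N, as the labels spell it, and had been sorted and then briefly expanded. Libraries BM1 and BM5 were from WT luminal cells, BM2 and BM6 from WT basal-like cells, BM3 and BM7 from Lats1-CKO luminal cells, and BM4 and BM8 from Lats1-CKO basal-like cells. Luminal cells were sorted as EpCAM-high and CD49f-high and basal-like cells as EpCAM-low and CD49f-high. Lats1-CKO cells carry a knockout of Lats1, which encodes a kinase of the Hippo pathway, and all cells of both genotypes carry the PyMT oncogene. The sources used here name neither the Cre driver nor the line or tumor behind each library, so the 2 libraries of a group may share a line, and p-values measure the spread between libraries only.

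The peak lists differed in size. They held 51497 to 99022 peaks in 7 libraries and 14753 in BM3, and the depth of each library is unknown. The study's methods state that, for its quality, a replicate of Lats1-CKO luminal cells was not used, without naming it, and so the main comparisons are also given without BM3. At Lats1, 7 libraries had a promoter peak and BM3 had none, which does not check the deletion. A promoter peak was called at 8 to 10 of 10 luminal markers in the luminal libraries other than BM3, at 4 in BM3 and at 4 to 8 in the basal-like libraries. Of 10 basal-like markers, 5 to 7 had one in the luminal libraries other than BM3, 3 in BM3 and 4 to 5 in the basal-like libraries. Without BM3, 1 of 10 luminal markers had a promoter highest in all luminal libraries (3.15% of strongest promoters), Cdh1, which encodes E-cadherin. Epcam had no promoter peak in BM4 and BM8 but had one in BM2 (percentile 66.1) and BM6 (22.5). Gata3 and Elf5 had one in BM4 (97.0 and 93.3) and BM8 (94.6 and 86.7). With all 8 libraries the promoter of the keratin gene Krt18, 1 of 10 luminal markers, was highest in all WT libraries (0.798% of strongest promoters). Krt5 had a promoter peak in BM7 alone, at percentile 1.23, and Trp63, which defines basal cells, had none in any library. Oxtr, another basal-like marker, had one in BM4, BM6 and BM8 (82.7, 69.9 and 92.4) and in BM7 (83.1). Of 10 fibroblast, 10 immune and 8 endothelial markers, 0 to 3, 0 to 3 and 0 to 2 had promoter peaks in luminal libraries. In the basal-like libraries 2 to 6, 1 to 4 and 1 to 3 had one. No library had one at 4 fibroblast, 6 immune and 4 endothelial markers, with Ptprc, Cdh5 and Tie1 among them. By contrast the immune marker Cd68 had one in every library but BM3, at 30.7 to 71.3. Csf1r, also an immune marker, reached 91.9 in BM1, and the endothelial marker Pecam1 reached 89.3 in BM7.

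Each peak has a score, which was ranked within its library, so that a score percentile of 90 means that it ranked above about 90% of the peaks of that library. Where no peak was called the percentile was set to 0, which says that none was called and not that the chromatin was closed. A peak at a given rank from the top has a lower percentile in a shorter list.

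The sequences shown are those on which the results below turn: the promoters of the 2 genes with strong promoter peaks, the distal promoter region of Runx2, both upstream regions of Runx3, and 1 strong or divergent intronic region each of Runx1, Runx2 and Cbfb. All are GRCm38 (mm10), written 5′ to 3′ on the strand of the gene, and contain no annotated exon. Capitals mark matches on either strand to TGTGGT (RUNX), GGAATG (TEAD), TGANTCA (AP-1) and CAGGTG (an E-box). The first 2 are the 250 bases before the RefSeq start of the proximal Runx1 promoter (chr16:92697330-92697579, minus strand) and of the Cbfb promoter (chr8:105170424-105170673, plus strand). Runx2-03 is whole (chr17:44814865-44815087, minus strand). The others are the central 300 bases of Runx3-02 (chr4:135079823-135080122, plus strand), Runx3-07 (chr4:135095773-135096072, plus strand), Runx1-39 (chr16:92620766-92621065, minus strand), Runx2-31 (chr17:44654522-44654821, minus strand) and Cbfb-12 (chr8:105186614-105186913, plus strand).
Runx1 proximal promoter: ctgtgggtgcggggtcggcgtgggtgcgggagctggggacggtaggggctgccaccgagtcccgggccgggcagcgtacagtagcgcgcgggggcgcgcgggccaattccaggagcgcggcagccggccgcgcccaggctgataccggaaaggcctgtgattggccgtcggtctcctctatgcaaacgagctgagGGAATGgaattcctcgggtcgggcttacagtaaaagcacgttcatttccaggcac
Cbfb promoter: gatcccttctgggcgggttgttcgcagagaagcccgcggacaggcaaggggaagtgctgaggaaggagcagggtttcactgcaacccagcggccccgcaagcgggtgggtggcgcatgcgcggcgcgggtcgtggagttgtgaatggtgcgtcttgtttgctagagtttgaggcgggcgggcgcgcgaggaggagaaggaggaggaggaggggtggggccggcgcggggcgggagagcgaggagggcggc
Runx2-03: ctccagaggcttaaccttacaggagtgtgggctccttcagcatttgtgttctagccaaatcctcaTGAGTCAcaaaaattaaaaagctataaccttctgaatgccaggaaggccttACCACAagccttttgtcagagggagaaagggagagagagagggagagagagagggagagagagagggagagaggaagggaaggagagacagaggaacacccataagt
Runx3-02: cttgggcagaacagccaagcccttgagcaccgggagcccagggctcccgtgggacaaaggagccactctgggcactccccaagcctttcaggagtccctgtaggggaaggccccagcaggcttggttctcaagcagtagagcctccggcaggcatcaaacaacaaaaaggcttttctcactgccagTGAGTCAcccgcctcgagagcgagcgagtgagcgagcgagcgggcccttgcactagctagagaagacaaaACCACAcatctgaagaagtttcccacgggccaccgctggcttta
Runx3-07: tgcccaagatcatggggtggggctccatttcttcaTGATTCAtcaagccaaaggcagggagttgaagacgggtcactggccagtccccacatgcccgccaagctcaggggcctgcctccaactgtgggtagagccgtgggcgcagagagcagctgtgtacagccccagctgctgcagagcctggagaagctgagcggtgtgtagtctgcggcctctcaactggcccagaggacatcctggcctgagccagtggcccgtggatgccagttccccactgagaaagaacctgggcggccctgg
Runx1-39: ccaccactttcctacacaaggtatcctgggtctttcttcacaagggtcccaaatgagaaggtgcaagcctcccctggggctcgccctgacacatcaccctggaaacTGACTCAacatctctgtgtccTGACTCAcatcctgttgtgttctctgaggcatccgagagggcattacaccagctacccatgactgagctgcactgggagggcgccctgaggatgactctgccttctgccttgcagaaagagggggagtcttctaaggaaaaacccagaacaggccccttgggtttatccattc
Runx2-31: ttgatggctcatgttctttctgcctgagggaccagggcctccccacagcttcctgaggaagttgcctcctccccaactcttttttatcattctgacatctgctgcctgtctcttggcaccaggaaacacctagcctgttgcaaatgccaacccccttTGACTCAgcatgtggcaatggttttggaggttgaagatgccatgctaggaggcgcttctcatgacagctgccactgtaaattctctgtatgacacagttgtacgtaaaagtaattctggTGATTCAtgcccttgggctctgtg
Cbfb-12: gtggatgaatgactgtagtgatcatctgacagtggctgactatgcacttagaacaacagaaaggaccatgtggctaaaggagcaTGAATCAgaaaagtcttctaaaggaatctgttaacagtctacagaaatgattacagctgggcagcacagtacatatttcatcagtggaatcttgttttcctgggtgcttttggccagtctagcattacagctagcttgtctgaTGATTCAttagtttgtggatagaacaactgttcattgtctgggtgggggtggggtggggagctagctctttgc

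Both promoter sequences are rich in G and C, at 67.6% for Runx1 and 69.2% for Cbfb, and hold a single match between them, a GGAATG in Runx1. Each of the 6 other sequences, which were picked for display, holds 1 or 2 AP-1 matches. The central 300 bases of the Runx3 region Runx3-23, not shown, hold no match to any of these motifs. Over all merged regions, 29.5% hold an AP-1 match in their central 300 bases. Runx2-03 and Runx3-02 also hold 1 RUNX match each. None of the printed matches overlaps another.

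The promoters of the 4 genes differed in how often they had a peak. Cbfb and the proximal promoter of Runx1 had one in all 8 libraries, the distal promoter of Runx1 in 7, both promoters of Runx2 in 5 each, the proximal promoter of Runx3 in 3 and its distal promoter in 1.

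**Figure D1:**
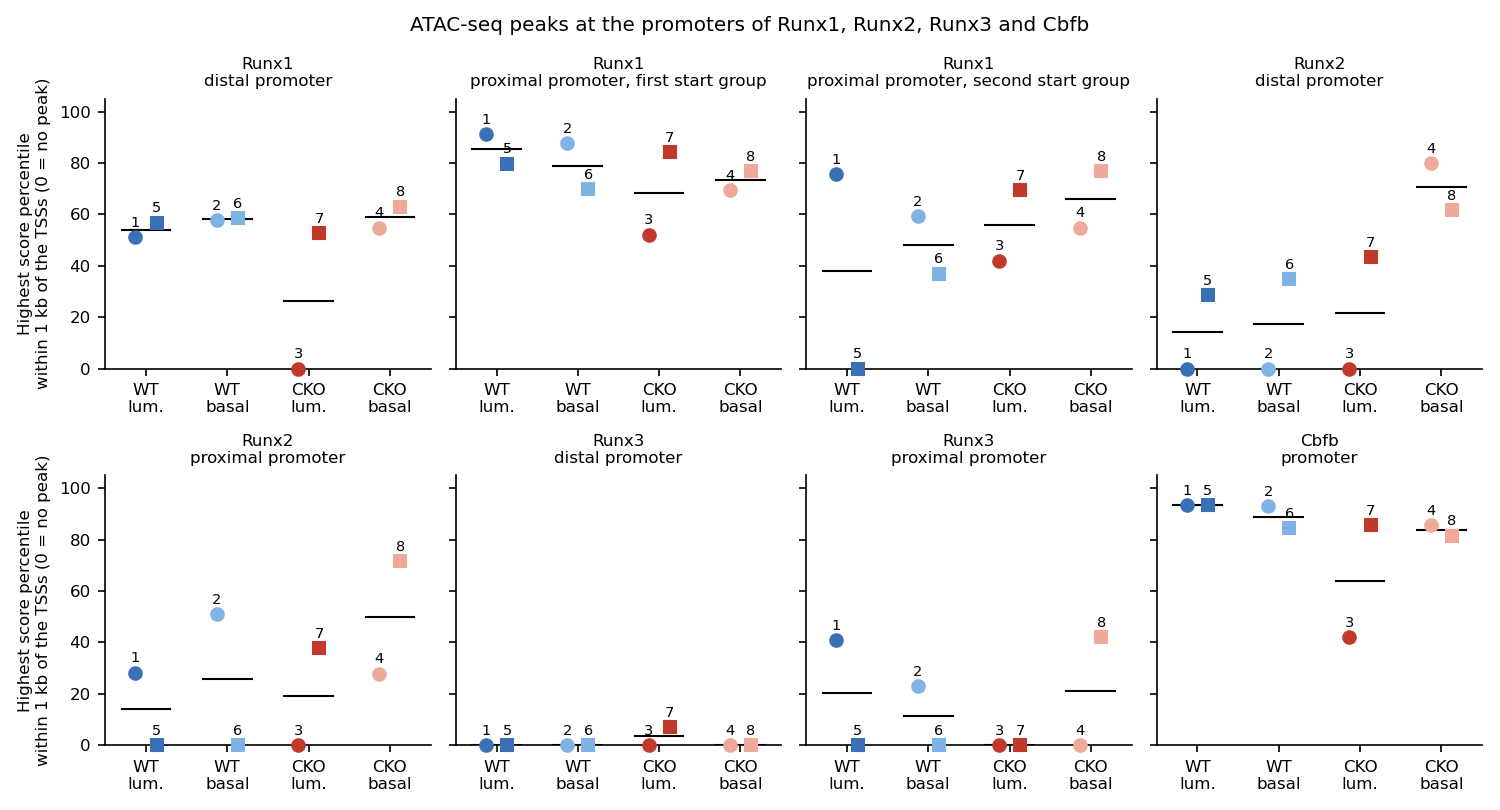
Highest score percentile of a peak within 1 kb of the TSSs of each promoter, by group. Each point is a library and its number is that of the library (1 is BM1), CKO is Lats1-CKO, bars are means of the 2 libraries of a group, and 0 means no peak; Cbfb is above 80 in 7 libraries while the distal promoter of Runx3 has a peak in BM7 alone.

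Cbfb (ENSMUSG00000031885, chromosome 8, 105170674 to 105217989, plus strand) has 1 promoter. The last of its TSSs, at 105170945, lies in Cbfb-10, where BM8 alone had a peak, at percentile 3.67. Region Cbfb-09 (chr8:105170399-105170933) covers the first TSS and ends just before the last. The percentile was 93.4 and 93.4 in WT luminal cells (BM1 and BM5), 93.0 and 84.6 in WT basal-like cells (BM2 and BM6), 42.0 and 85.7 in Lats1-CKO luminal cells (BM3 and BM7), and 85.6 and 81.5 in Lats1-CKO basal-like cells (BM4 and BM8). WT luminal cells thus ranked first, and the other 3 groups overlapped. The mean was 91.1 ± 4.32 (SD, n = 4) in WT and 73.7 ± 21.2 (n = 4) in Lats1-CKO libraries, and the ranges overlapped (exact two-sided permutation test, p = 0.0857). Without BM3 the Lats1-CKO mean was 84.3 ± 2.39 (n = 3; exact permutation test, p = 0.114). With lists of equal length the genotypes separated. With the 14000 highest-scoring peaks of each of the 8 libraries, the promoter was at 65.6 and 72.1 in WT luminal, 64.7 and 43.4 in WT basal-like, 38.9 (BM3) and 4.46 in Lats1-CKO luminal, and 11.4 and none in Lats1-CKO basal-like libraries. All WT libraries were then above all Lats1-CKO libraries (61.4 ± 12.5 against 13.7 ± 17.5, n = 4 each; exact permutation test, p = 0.0286), an order that 0.942% of all promoters had. With 50000 peaks of each of the 7 libraries other than BM3 it was 89.2 ± 3.50 against 70.6 ± 6.32 (n = 4 and 3; exact permutation test, p = 0.0286), in the same order, which 4.55% of all promoters had. By peak bases in place of the percentile, the genotypes differed by 62.8 bp, with Lats1-CKO higher (exact permutation test, p = 0.600). The p-values at this promoter are not adjusted for the other promoters. Both equal-length values are the smallest that the exact permutation test allows. They rest on the order given beside them, so they are no separate support for it. The setting of 50000 peaks was chosen after seeing the data.

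Runx1 (ENSMUSG00000022952, chromosome 16, 92601466 to 92826149, minus strand) had its strongest promoter peak at the first start group of the proximal promoter, in Runx1-23 (chr16:92697229-92697548). The percentile there was 91.3 and 79.8 in WT luminal, 87.7 and 69.9 in WT basal-like, 52.1 (BM3) and 84.4 in Lats1-CKO luminal, and 69.6 and 77.0 in Lats1-CKO basal-like libraries. Both WT luminal libraries were above both Lats1-CKO basal-like libraries, the other groups overlapped, and BM3 was lowest. A second start group lies further on, and within 500 bp of it no library had a peak. Runx1-24 (chr16:92696668-92696961) is within 1 kb of both start groups and nearer the first, at 367 bp. Its peak was at 75.7 and none, 59.3 and 37.0, 42.0 and 69.6, and 54.9 and 77.0 in the same order of groups. BM5 alone lacked it. The distal promoter, in Runx1-07 (chr16:92825913-92826207), was at 51.3 and 56.8, 57.9 and 58.7, none and 52.6, and 54.9 and 63.0. Among the 7 libraries with a peak these percentiles spanned 51.3 to 63.0. Thus both Runx1 promoters had peaks in luminal and basal-like cells of both genotypes, with the proximal above the distal in every library.

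Runx2 (ENSMUSG00000039153, chromosome 17, 44495987 to 44814797, minus strand) had weaker and less regular promoter peaks. Its distal promoter, in Runx2-03 (chr17:44814865-44815087), had no peak in BM1, BM2 and BM3. The percentile was 28.5 in BM5 (WT luminal), 34.7 in BM6 (WT basal-like), 43.3 in BM7 (Lats1-CKO luminal), and 79.9 and 61.6 in BM4 and BM8 (Lats1-CKO basal-like). Lats1-CKO basal-like cells therefore ranked first, above the 6 other libraries. With all 8 libraries the genotypes overlapped (46.2 ± 34.2 in Lats1-CKO against 15.8 ± 18.4 in WT, SD, n = 4 each; exact permutation test, p = 0.200). Without BM3, all 3 Lats1-CKO libraries were above all 4 WT libraries, at 61.6 ± 18.3 against 15.8 ± 18.4, a difference of 45.8 (exact permutation test, p = 0.0286, the smallest that 3 against 4 libraries allow). Such an order was common: it held at 10.6% of all promoters tested. With only the 50000 highest-scoring peaks of each of the 7 libraries the percentile was 0, 15.9, 0 and 32.7 in BM1, BM5, BM2 and BM6 and 0, 65.3 and 23.9 in BM7, BM4 and BM8, and the order was lost.

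The proximal promoter of Runx2, where the antisense gene Runx2os1 also starts, had 5 narrow regions (Runx2-13 to Runx2-17) and no region shared by more than 4 libraries. Its highest percentile was 28.2 in BM1, 51.1 in BM2, 27.8 in BM4, 37.8 in BM7 and 71.7 in BM8, and BM3, BM5 and BM6 had no peak. Every group but Lats1-CKO basal-like thus had a library without a peak there. The position of the peaks differed between libraries, and without strand the 2 genes cannot be told apart.

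Runx3 (ENSMUSG00000070691, chromosome 4, 135120652 to 135177990, plus strand) had almost no promoter peaks. The distal promoter had one in BM7, at percentile 6.84. The proximal promoter had one in BM1 (40.8), BM2 (22.8) and BM8 (42.0), in Runx3-14 (chr4:135152416-135152570) for the first 2 and in Runx3-15 (chr4:135152927-135153020) for BM8. No group had it in both libraries. By the highest promoter percentile, Runx3 was thus at 0 in BM3, BM4, BM5 and BM6.

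Most regions lay away from promoters. Of the 135 regions, 16 were within 1 kb of a TSS, 88 were intronic, 1 was exonic, 26 were upstream and 4 downstream of the gene. The map of peaks by library shows where they lay. Of the 53 Runx2 regions, 44 were intronic, and 15 of these lay beyond the end of the protein-coding transcripts, where only a transcript marked for nonsense-mediated decay extends the gene. By contrast 10 of the 25 Runx3 regions and 8 of the 13 Cbfb regions were upstream, and 3 Cbfb regions lay inside Ces4a, a neighbouring gene. Inside another gene, Supt3, lay 7 Runx2 regions, Runx2-01 to Runx2-07, with the distal promoter regions among them. In all, 123 of 135 regions had a TSS of their own gene as the nearest protein-coding TSS. Regions were somewhat denser than usual, at 16.0 per 100 kb for Runx1, 14.4 for Runx2, 18.7 for Runx3 and 12.9 for Cbfb, with a median of 11.0 over all protein-coding genes.

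**Figure D2:**
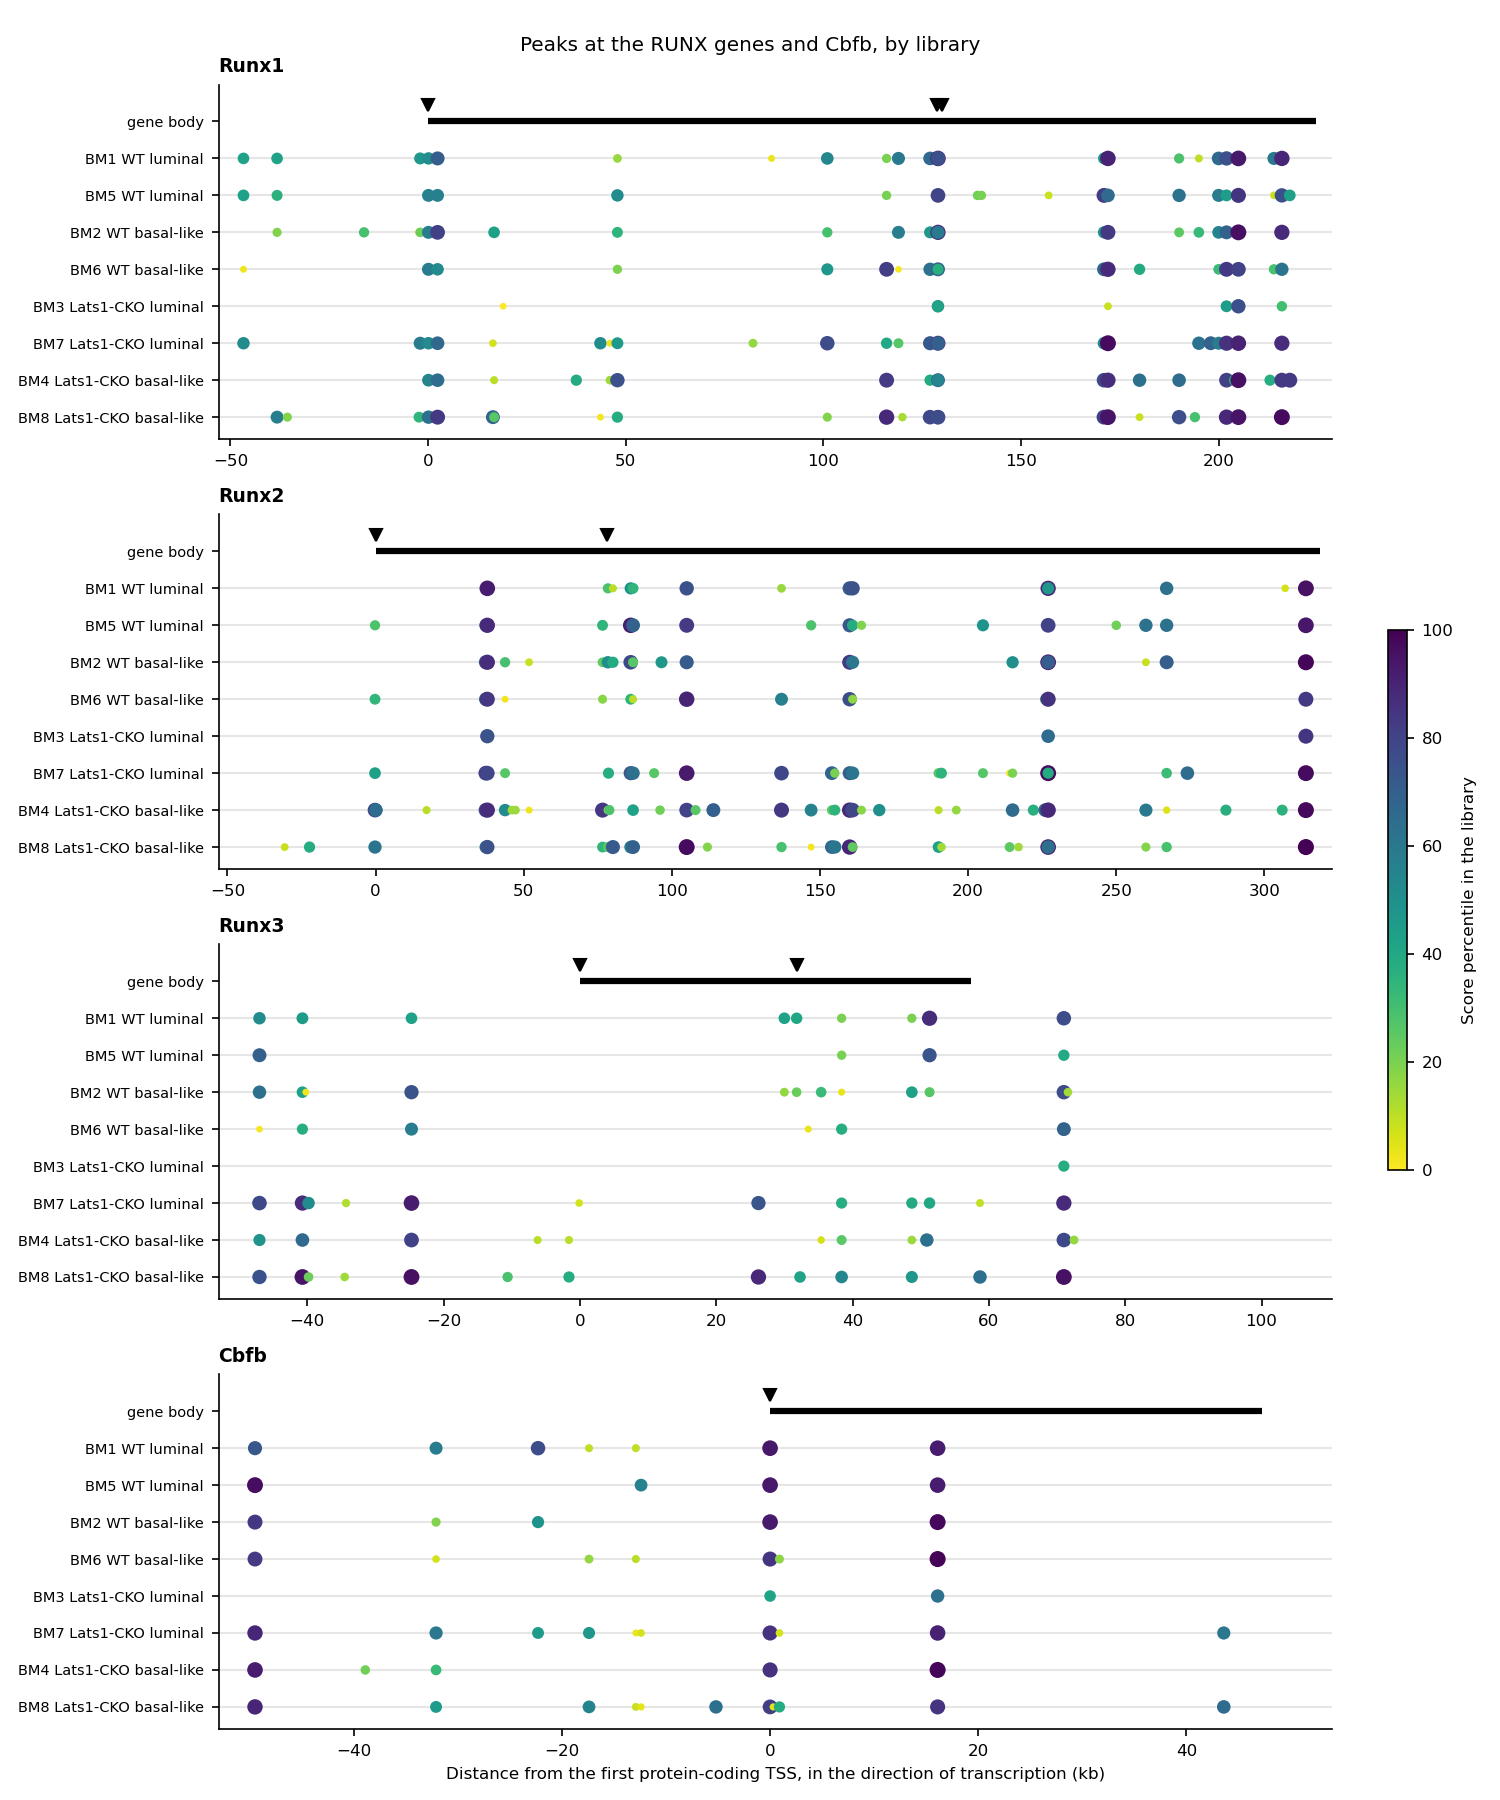
Peaks at the 4 genes, 1 row per library, against the distance from the first protein-coding TSS in kb. Larger and darker points have a higher score percentile, black bars are gene bodies and triangles mark promoters; Runx1 and Runx2 carry strong peaks far downstream of their promoters in all libraries, and BM3 has the fewest points at each gene.

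Of the 135 regions, 12 had a peak in all 8 libraries (8.89%, against 5.95% of all merged regions) and 24 in 7 or 8 (17.8% against 13.3%). Another 53 had a peak in 1 library only (39.3% against 44.5%), with a median percentile of 21.6, and 20 of these were in BM4 and 13 in BM8. The share of each library among all single-library regions was not counted. Whether this division is particular to these genes was therefore not tested. The 12 shared regions were 5 at Runx1, 4 at Runx2, 1 at Runx3 and 2 at Cbfb, and 10 of them were not promoters.

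In Runx1 the highest-ranked region outside promoters was Runx1-39 (chr16:92620724-92621107), an intronic region 205 kb after the first TSS. It reached 93.4 and 84.7 in WT luminal, 96.1 and 80.3 in WT basal-like, 75.8 and 90.4 in Lats1-CKO luminal and 96.0 and 94.7 in Lats1-CKO basal-like libraries. Its percentile was above that of the proximal promoter in all 8 libraries. Runx1-29 (chr16:92653838-92654281), 172 kb after the TSS, was at 90.6 and 66.0, 83.1 and 88.0, 8.28 and 96.9, and 87.2 and 94.7 in the same order, and all groups overlapped.

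The strongest Runx2 regions lay at the far end of the gene. Runx2-53 (chr17:44500226-44500826), 314 kb after the first TSS, had 95.6 and 94.1, 98.7 and 83.3, 84.4 and 97.0, and 97.7 and 99.4 in the same order. Runx2-44 (chr17:44588032-44588367) had 88.4 and 80.3, 94.2 and 85.4, 65.7 and 97.1, and 88.7 and 92.5. Both were open in every library, including the 3 without a peak at the distal promoter.

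Cbfb-12 (chr8:105186564-105186963), in an intron 16.1 kb after the TSS, matched the promoter in strength. Its percentile was 92.3 and 92.2, 97.7 and 98.9, 62.9 and 90.9, and 98.5 and 84.9 in the same order, and it was above that of the promoter in all libraries but BM1 and BM5, both WT luminal. Cbfb-01 (chr8:105121056-105121313), 49.5 kb upstream of Cbfb and 10.5 kb from the nearest TSS, that of Ces4a, had a peak in 7 libraries, at 72.7 to 96.8, and none in BM3.

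**Figure D3:**
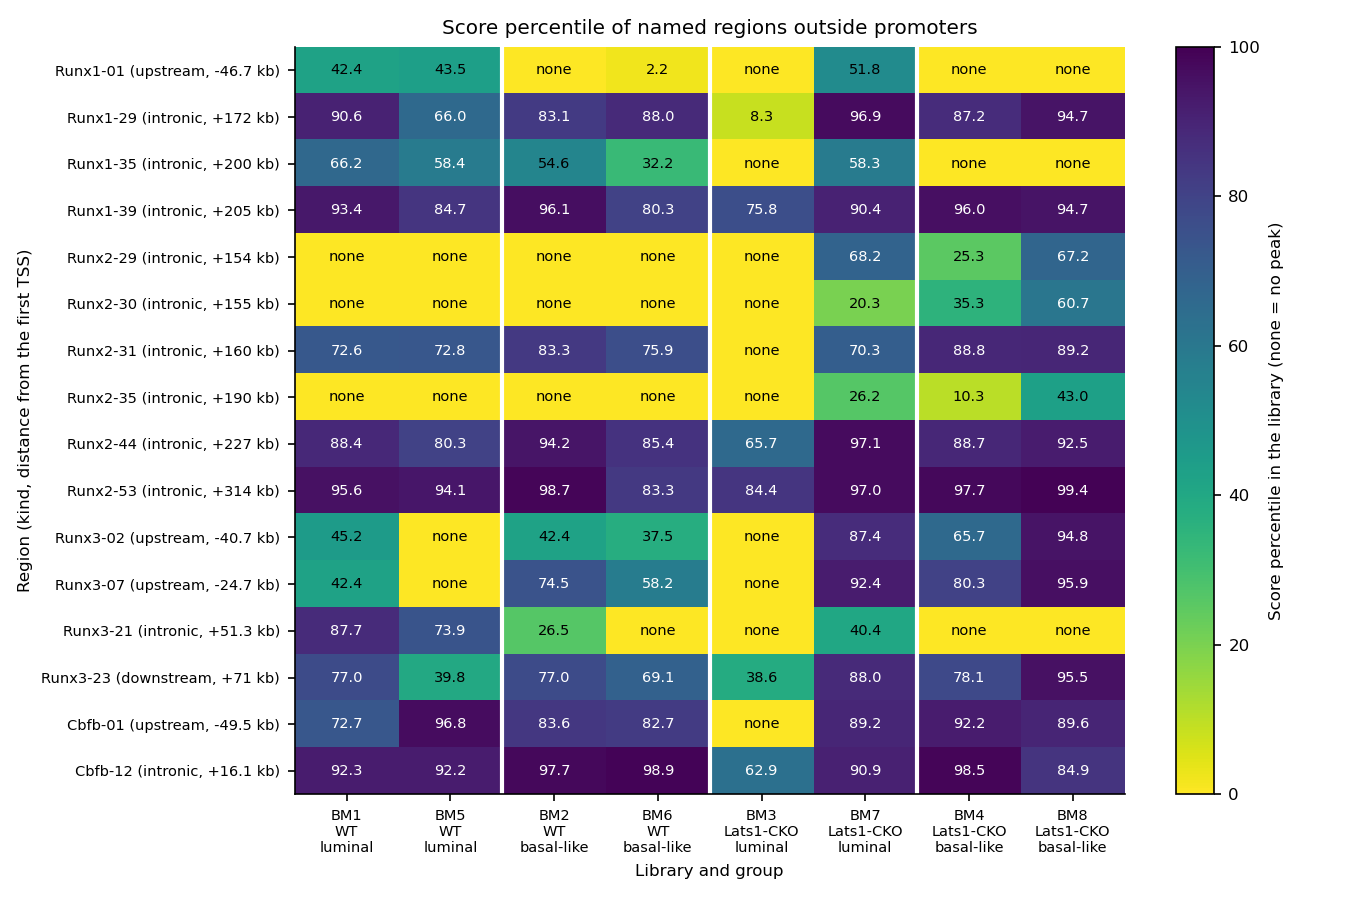
Score percentile of the named regions outside promoters, 1 row per region and 1 column per library, with the value in each cell (none means no peak). Runx1-39, Runx2-44, Runx2-53 and Cbfb-12 are above 60 in all 8 libraries, while Runx3-02 and Runx3-07 are highest in BM7, BM4 and BM8.

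The number of regions with a peak was compared between genotypes at each gene. Runx2 had the widest spread. It had 15 and 17 in WT luminal, 19 and 14 in WT basal-like, 4 (BM3) and 24 in Lats1-CKO luminal, and 36 and 28 in Lats1-CKO basal-like libraries. The latter 2 were highest and BM3 lowest. With all 8 libraries the mean was 23 ± 13.6 (SD, n = 4) in Lats1-CKO and 16.2 ± 2.22 (n = 4) in WT (exact permutation test, p = 0.429), and the difference of 6.75 was 2.42 without BM4. Without BM3 the Lats1-CKO mean was 29.3 ± 6.11 (n = 3), and every Lats1-CKO library was above every WT library, a difference of 13.1 (exact permutation test, p = 0.0286, adjusted 0.158 by the Benjamini-Hochberg method over 20229 genes). That order was shared by 23.0% of genes, and the 3 Lats1-CKO libraries have the longest peak lists. Per 10000 peaks of the library, Runx2 had 3.19 ± 0.861 against 2.59 ± 0.363 and the genotypes overlapped. With the 50000 highest-scoring peaks of each of the 7 libraries the counts were 10 and 17 in WT luminal, 15 and 13 in WT basal-like, 12 in Lats1-CKO luminal (BM7), and 19 and 13 in Lats1-CKO basal-like libraries. The genotypes then overlapped, with a mean difference of 0.917 (exact permutation test, p = 0.771), and 2.13% of genes had all Lats1-CKO libraries highest.

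**Figure D4:**
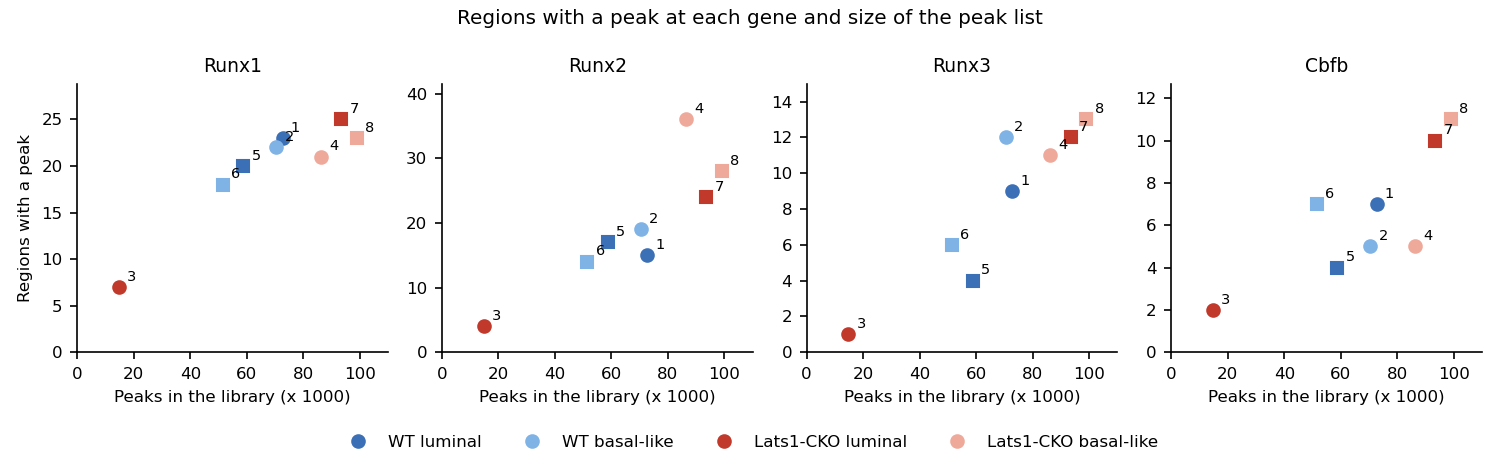
Number of regions with a peak at each gene against the number of peaks in the library. Each point is a library, coloured by group and numbered as in its name (3 is BM3); BM3 is lowest at all 4 genes and BM4 has the most Runx2 regions, 36.

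Runx1 had 23 and 20 regions with a peak in WT luminal, 22 and 18 in WT basal-like, 7 (BM3) and 25 in Lats1-CKO luminal, and 21 and 23 in Lats1-CKO basal-like libraries. The 7 libraries other than BM3 had 18 to 25, and the genotypes overlapped (19 ± 8.16 in Lats1-CKO, 20.8 ± 2.22 in WT, SD, n = 4 each; exact permutation test, p = 0.914). Per 10000 peaks and without BM3, Runx1 had 2.48 ± 0.180 (n = 3) regions in Lats1-CKO and 3.30 ± 0.181 (n = 4) in WT libraries, and all WT libraries were above all Lats1-CKO libraries (exact permutation test, p = 0.0286, adjusted 0.512). WT libraries were highest in this way for 7.30% of genes and Lats1-CKO libraries for 3.99%. With BM3, which had 4.74 per 10000 peaks, the order was lost (exact permutation test, p = 0.743). With 50000 peaks of each library, Runx1 had 17 and 18, 17 and 16, 17 (BM7), and 14 and 14.

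Runx3 had 9 and 4 regions with a peak in WT luminal, 12 and 6 in WT basal-like, 1 (BM3) and 12 in Lats1-CKO luminal, and 11 and 13 in Lats1-CKO basal-like libraries. Cbfb had 7 and 4, 5 and 7, 2 and 10, and 5 and 11 in the same order. In both genes the genotypes overlapped, while at Runx3 both Lats1-CKO basal-like libraries were above both WT luminal libraries. With 50000 peaks of each of the 7 libraries other than BM3, Runx3 had 7 and 4, 6 and 5, 6 (BM7), and 5 and 7. That order at Runx3 was then lost. Cbfb had 5 and 4, 4 and 7, 6 (BM7), and 3 and 6. The genotypes differed by 1.50 regions in Runx3 (exact permutation test, p = 0.743) and by 1.25 in Cbfb (p = 0.629 in the same exact test), and without BM3 by 4.25 and 2.92 (exact permutation tests, p = 0.143 and 0.257). None of the 4 genes had all libraries of a genotype above the other with all 8 libraries, where 0.0148% of genes had Lats1-CKO and 0.0247% had WT highest. Without BM3, 0.0544% had WT highest.

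Between populations the number of regions with a peak was 24.2 ± 9.74 in basal-like and 15 ± 8.29 in luminal libraries for Runx2 (SD, n = 4 each; exact permutation test, p = 0.200). For Runx3 it was 10.5 ± 3.11 against 6.50 ± 4.93 (exact permutation test, p = 0.229). For Runx1 and Cbfb the differences were 2.25 and 1.25 regions (exact permutation tests, p = 0.857 and 0.629). Without BM3 the differences were 5.58 for Runx2, 2.17 for Runx3, -1.67 for Runx1 and 0 for Cbfb (exact permutation tests, p = 0.400, 0.457, 0.457 and 1). The populations overlapped at each of the 4 genes, and 0.208% of genes had all basal-like libraries highest, with or without BM3. No gene passed the test after adjustment in any of these comparisons of counts with all 8 libraries, where the smallest adjusted p over all genes was 1. Per 10000 peaks, the smallest between genotypes was 0.777 in the exact permutation test.

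Single regions were then compared over all 82 regions of the 4 genes with a peak in at least 2 libraries. A region is called here when all libraries of one group have a higher percentile than all of the other. With all 8 libraries, 0 of 82 regions had Lats1-CKO highest and 0 had WT highest, against 0.113% and 0.612% of all regions tested. The smallest adjusted p over all regions was 0.904 in the exact permutation test. Without BM3, 7 of 82 (8.54%) had all 3 Lats1-CKO libraries highest, close to the 9.98% of all regions, and 0 had WT highest (0.639% of all regions). The smallest adjusted p was 0.428 in the same exact permutation test, so no region passed. Of the 7 regions, 4 were at Runx2 and 3 at Runx3, and none at Runx1 or Cbfb. A p-value given below for a called region rests on the values that called it, so it is no separate support.

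At Runx3 these were the upstream regions Runx3-02 and Runx3-07 and the downstream region Runx3-23. Runx3-02 (chr4:135079784-135080161), 40.7 kb before the first TSS, was at 45.2 and none in WT luminal, 42.4 and 37.5 in WT basal-like, none (BM3) and 87.4 in Lats1-CKO luminal, and 65.7 and 94.8 in Lats1-CKO basal-like libraries. BM7, BM4 and BM8 were all above the highest WT library. Without BM3 the mean was 82.6 ± 15.1 (n = 3) against 31.3 ± 21.1 (n = 4), a difference of 51.4 (exact permutation test, p = 0.0286, not adjusted). Runx3-02 was named for this order, so that p-value does not support it. With BM3 the genotypes overlapped (difference 30.7, exact permutation test, p = 0.257).

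Runx3-07 (chr4:135095689-135096155), 24.7 kb before the first TSS, also ranked higher in BM7, BM4 and BM8 than in every WT library. It was at 42.4 and none in WT luminal, 74.5 and 58.2 in WT basal-like, none (BM3) and 92.4 in Lats1-CKO luminal, and 80.3 and 95.9 in Lats1-CKO basal-like libraries. BM5 and BM3, both luminal, lacked it. The difference was 45.8 without BM3 (89.5 ± 8.16, n = 3, against 43.8 ± 32.0, n = 4; exact permutation test, p = 0.0571) and 23.4 with it (exact permutation test, p = 0.429). At Runx3-23 (chr4:135191266-135192006), 71 kb after the first TSS and 38.8 kb from the nearest TSS, the percentile was 77.0 and 39.8, 77.0 and 69.1, 38.6 and 88.0, and 78.1 and 95.5 in the same order. All 8 libraries had a peak there, and BM4 was barely above BM1 and BM2. The regions Runx3-02 and Runx3-07 thus ranked high in Lats1-CKO libraries that had no peak at the proximal Runx3 promoter (BM7 and BM4) or a peak at percentile 42.0 (BM8).

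The 3 Lats1-CKO libraries other than BM3 have the longest lists, and the regions were therefore also compared with lists of equal length. With the 50000 highest-scoring peaks of each of the 7 libraries, 89 of the 135 regions kept a peak and 57 had one in at least 2 libraries. Of these, 2 had all Lats1-CKO libraries highest, Runx3-02 and Runx3-07, against 3.18% of all regions. Runx3-02 was then at 20.3 and none, 18.9 and 35.6, 76.4 (BM7), and 40.8 and 89.7. Runx3-07 was at 16.2 and none, 64.1 and 57.0, 85.9 (BM7), and 66.0 and 91.8. These 2 regions thus kept their order with lists of equal length. Their count, 2 of 57, is close to the 3.18% of all regions and is no result about these genes. A further 4 regions had all WT libraries highest, against 3.19% of all regions: the distal Runx1 promoter Runx1-07, the intronic regions Runx1-35 and Runx2-07, and the Cbfb promoter Cbfb-09. Cbfb-09 was then at 90.4 and 92.2, 90.1 and 84.1, 73.2 (BM7), and 75.2 and 63.4, and Runx1-07 at 29.3 and 49.2, 40.7 and 57.5, 11.4 (BM7), and 22.2 and 26.7. Runx2-07 (chr17:44776810-44777336) lies within 1 kb of a TSS of the neighbouring gene Supt3.

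At Runx2 the 4 regions were the distal promoter region Runx2-03 and the intronic regions Runx2-29 (chr17:44660229-44660402), Runx2-30 (chr17:44659812-44660094) and Runx2-35 (chr17:44624232-44624462). The 3 intronic regions had no peak in any WT library or in BM3. Runx2-29 was at 68.2 in BM7, 25.3 in BM4 and 67.2 in BM8, Runx2-30 at 20.3, 35.3 and 60.7, and Runx2-35 at 26.2, 10.3 and 43.0. Runx2-29 and Runx2-30 are neighbours and may be parts of 1 open region. With 50000 peaks of each library BM4 lacked all 3, and the order held for none of the 4 Runx2 regions.

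Between populations, 1 of 82 regions had all basal-like libraries highest, against 0.950% of all regions, and 0 had all luminal libraries highest (0.0906%). That region was Runx2-31 (chr17:44654480-44654863), in an intron 160 kb after the first TSS. It was at 83.3 and 75.9 in WT basal-like and 88.8 and 89.2 in Lats1-CKO basal-like libraries, and at 72.6 and 72.8 in WT luminal and none (BM3) and 70.3 in Lats1-CKO luminal libraries. The mean was 84.3 ± 6.22 (SD, n = 4) in basal-like and 53.9 ± 36.0 (n = 4) in luminal libraries (exact permutation test, p = 0.0286, adjusted 1 over all regions). Without BM3 the order held, the difference fell from 30.4 to 12.4 (exact permutation test, p = 0.0571), and 0.958% of all regions had that order. With 50000 peaks it held too, where 1.48% of all regions did. The promoters of the fibroblast genes Pdgfra and Pdgfrb were ordered in the same way, 2 of 10 fibroblast markers, and their part in this result was not tested. Over all genes 0.783% of strongest promoters had this order.

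Without BM3, 3 regions had all luminal libraries highest (1.99% of all regions). These were Runx1-01 (chr16:92872706-92872996), 46.7 kb upstream, Runx1-35 (chr16:92626447-92626867) and Runx3-21 (chr4:135171813-135172085), both intronic. Runx1-01 was at 42.4 and 43.5 in WT luminal cells and 51.8 in BM7, and among basal-like libraries it had a peak in BM6 alone, at 2.22. Runx3-21 was at 87.7 and 73.9 in WT luminal cells and 40.4 in BM7, and at 26.5 in BM2 and none in the other 3 basal-like libraries. Runx1-35 was at 66.2 and 58.4 in WT luminal cells and 58.3 in BM7, at 54.6 and 32.2 in WT basal-like cells and none in BM4 and BM8. BM3 lacked all 3. With 50000 peaks the order was left for Runx1-01 only, against 2.30% of all regions.

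The central 300 bases of the regions were searched for the motifs, as a description of their letters. TGTGGT was found in 41 of 135 regions (30.4%, against 27.8% of all merged regions), TGANTCA in 51 (37.8% against 29.5%), GGAATG in 27 (20%, against 38521 of all 183173) and CAGGTG in 29 (21.5% against 19.4%). The estrogen response element was in none, and in 0.0841% of all regions. AP-1 letters were more frequent away from promoters, in 49 of 119 regions (41.2%), than within 1 kb of a TSS, in 2 of 16 (12.5%). All merged regions were not split in this way, so whether the contrast is particular to these genes was not tested. Among the 24 regions with a peak in 7 or 8 libraries, 14 held TGANTCA (58.3%, against 30.8% of all regions shared by that many libraries) and 9 held TGTGGT (37.5% against 23.9%). Of these 24 regions 4 were promoters, and the promoter share of the regions set against them was not counted. By gene, TGANTCA was in 18 of 44 regions of Runx1, 23 of 53 of Runx2, 8 of 25 of Runx3 and 2 of 13 of Cbfb.

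Genes whose strongest promoter was most like that of each member were found by the mean absolute difference of the percentile over the 8 libraries, out of 21645 genes. For Cbfb these were Ski, Dnajc10 and Mier3, at 2.01, 2.66 and 2.69 points, and 55 genes were within 5 points. For Runx1 they were Vamp3, Swap70 and Rps9 (3.04, 3.60 and 3.89 points) and for Runx3 C1ql1, Dennd2d and Mal (2.59, 2.92 and 3.62 points). Runx2 had no gene within 5 points, and the nearest were Pid1, Galnt7 and Gm17482 (6.38, 6.71 and 7.10 points).

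Other genes of the pathway were taken from lists. Of 16 partners of RUNX factors, such as the coactivators Yap1 and Ep300 and the corepressors of the Tle family, 15 had a promoter peak in 7 libraries and 12 in BM3, and Tle2 had none in any. Yap1 was at 87.6 and 19.3 in WT luminal, 43.6 and 62.7 in WT basal-like, 8.28 (BM3) and 80.1 in Lats1-CKO luminal, and 79.0 and 71.1 in Lats1-CKO basal-like libraries, and no partner promoter had all libraries of a genotype or population highest. Known RUNX targets were more variable. A promoter peak was called at 12 and 6 of 16 in WT luminal, 9 and 4 in WT basal-like, 0 (BM3) and 11 in Lats1-CKO luminal, and 13 and 11 in Lats1-CKO basal-like libraries, and the bone genes Ibsp and Sp7 had none.

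With all 8 libraries the promoter of 1 target, Spp1, which encodes the matrix protein osteopontin, was highest in all WT libraries (0.798% of strongest promoters). It was at 85.9 and 83.3, 92.1 and 92.2 in WT, and none (BM3), 83.1, 80.7 and 78.4 in BM7, BM4 and BM8. BM7 was only just below BM5. Without BM3, 2 of 16 targets had a promoter highest in all Lats1-CKO libraries against 10.8% of strongest promoters: Bglap, which encodes osteocalcin, at 68.2, 10.3 and 57.2 in BM7, BM4 and BM8 and none in WT, and Itgal, a leukocyte integrin gene, at 35.4, 45.5 and 51.8 with 32.3 in BM1 and none in the other WT libraries. By the number of regions with a peak, 6 of 16 partners and 7 of 16 targets had all Lats1-CKO libraries highest without BM3, beside the 23.0% of all genes given above.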

How the data were processed

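ATAC-seq peak lists of 8 libraries, 2 of each of the 4 groups, were analysed. Reads were trimmed with cutadapt and aligned to mm10 with Bowtie 1.0.0, and the submitters' processing notes also name Picard 2.3.0 and MACS2 2.1.1.20160309; the paper's methods give another MACS2 release. The authors deposited 1 list per library with a score for each peak, taken here to be that of MACS2, after removal of blacklisted regions. The lists hold no read counts, so the depth is unknown and the DiffBind comparison of the study was replaced by the presence of a peak and the percentile of its score.

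Peaks that overlapped or touched were merged across the 8 libraries. Promoters were TSSs of protein-coding transcripts of GENCODE M21, joined when within 1 kb, with 1 kb on either side. Values were compared by two-sided exact permutation tests, 4 libraries against 4 or 3 against 4, with Benjamini-Hochberg adjustment over all genes or regions, and the test was checked on simulated counts. Sequences and promoters came from GRCm38.p6 and RefSeq, where all 4 genes matched (6 promoters). The genes, lists and regions were chosen with earlier results of these data known. The named regions are those at promoters, the 2 of highest median percentile per gene, and those called; Runx2-07 and the regions with lists of equal length were added after their values were seen. Alternatives were each library left out, equal numbers of peaks, counts per 10000 peaks, 25 kb, an overlap of 50 bp, 500 bp, the median score, peak bases and a difference of at least 10 points. Scripts ran in Python 3.11.15 with matplotlib 3.10.9, pysam 0.24.0, scipy 1.17.1, numpy 2.4.6 and pandas 2.3.3.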

Additional observations from a re-analysis of the deposited data

Results flagged for a closer look

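At Runx2-31, which was named because it was called in these data, the genotype difference had opposite signs in the 2 populations. It was 9.41 in basal-like and -37.5 in luminal libraries. Both Lats1-CKO basal-like libraries (88.8 and 89.2) were above both WT basal-like libraries (83.3 and 75.9), and both Lats1-CKO luminal libraries (none in BM3, 70.3 in BM7) were below both WT luminal libraries (72.6 and 72.8). The genotype difference in basal-like minus that in luminal libraries was 46.9 percentile points. The difference was not tested, since 2 libraries against 2 cannot go below p = 0.333 in an exact permutation test, and without BM3 it was 11.8. The luminal genotype difference was then only -2.34 and rested on BM7 alone among Lats1-CKO luminal libraries.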

How the results depend on the processing

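Depth is unknown, no read counts support a percentile, and 4 libraries against 4 or 3 against 4 cannot go below p = 0.0286 in an exact permutation test. No paired analysis was possible because the labels give the libraries no shared replicate numbers.

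Of 288 alternatives with an exact permutation test, 5 had p under 0.05. They were the genotype difference of Runx2 in regions with a peak and at its distal promoter without BM3 (13.1 and 45.8), that of the Cbfb promoter with 14000 peaks of each library (-47.7) and with 50000 without BM3 (-18.6), and the population difference at the distal Runx1 promoter without BM5 (24.0). With one library left out in turn, the genotype difference (Lats1-CKO minus WT) in regions with a peak was -3.75 to 2.25 (without BM3) for Runx1, 2.42 (without BM4) to 13.1 (without BM3) for Runx2, -0.25 (without BM8) to 4.25 for Runx3 and -0.0833 (without BM8) to 2.92 for Cbfb. That between populations (basal-like minus luminal) was -1.67 (without BM3) to 4.33 for Runx1 and -0.0833 (without BM8) to 2.67 for Cbfb. The promoter percentile differed by genotype by -20.4 to 0.651 (Runx1 distal) and -15.9 to 2.91 (Runx3 proximal), and by population by -9.10 to 3.99 and -5.41 to 19.8 (the first and second start group of Runx1), -2.60 to 16.2 (Runx3 proximal) and -4.63 to 12.5 (Cbfb). Regions called were 0 to 7 (Lats1-CKO highest, 7 without BM3), 0 to 3 (WT, 3 without BM6, 2 without BM4 and 1 without BM7), 1 to 4 (basal-like, 4 without BM6, 3 without BM2 or BM5 and 2 without BM4, BM7 or BM8) and 0 to 3 (luminal, 3 without BM3).

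Apart from Runx2 at the end, only differences that lost or reversed their sign and changed numbers of called regions are listed next. Of 336 alternatives, 14 differences in regions with a peak and 17 promoter differences reversed. Another 22 fell to 0 or were changed numbers of called regions, and the others kept their sign or number. With only the top 14000 peaks by score in every library, the genotype difference in regions with a peak was 0.250 for Runx1, 0 for Runx2 and -0.5 for Cbfb, and that between populations -0.250 for Runx1 and Runx3 and 0 for Cbfb. The promoter differences between populations were then -9.73 (second start group of Runx1) and -15.4 (Cbfb), and 1 region had WT highest. The distal promoter of Runx1 and all promoters of Runx2 and Runx3 gave no value, as no peak was left. Without BM3 and with 50000 peaks each, chosen after seeing the data, differences in regions with a peak were -2.08 between populations for Runx1 and 0 in both comparisons for Cbfb, and promoter differences between populations were -4.66 (Runx3 proximal) and -7.06 (Cbfb). Regions called were then 2 (Lats1-CKO), 4 (WT) and 1 (luminal). Per 10000 peaks, the differences were -0.0594 by genotype for Runx3, and -0.653 and -0.0774 between populations for Runx1 and Cbfb. With peaks above the median score they were 1 by genotype for Runx1 and 0 in both comparisons for Cbfb. With peak bases, the promoter differences were 80.8 and 62.8 bp by genotype for Runx1 (first start group) and Cbfb, and 82.2 bp between populations for Runx1. The cause of these changes was not tested. Runx2 was the gene whose difference in regions with a peak between populations kept its sign in all alternatives run. That difference shrank from 9.25 in the main comparison to 1 with 14000 peaks (exact permutation test, p = 0.314). With 50000 peaks and without BM3 it was 2 (exact permutation test, p = 0.457). The alternatives reuse the same libraries, so a kept sign is no separate support.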
